A study of Homo sapiens with 16 samples.

Results

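The heat shock chaperones and their transcription factor HSF1 are described here in HL60, a human line of acute promyelocytic leukaemia, after inhibition of the kinase CDK7. The set was 10 genes listed by symbol: HSF1, HSPA1A, HSPA1B, HSPA8, HSP90AA1, HSP90AB1, HSPH1, DNAJB1, HSPD1 and HSPE1. Of the 18093 rows of the deposited count table, 7 belonged to these genes and 6 of the 7 held counts. HSF1, HSPA1A and HSPA1B were not analysed here, and the HSPE1 row stood at 0 counts in all 8 libraries. Wild-type HL60 cells received 50 nM SY-351, an inhibitor of CDK7, for 5 h, or the solvent DMSO for 5 h. Each group had 4 numbered replicates, and 16 records with technical repeats A and B stood behind the 8 count columns. All libraries came from 1 line, and nothing in the labels tied the replicates to separate cultures, so p-values measure the spread between these samples, which may be technical.

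HSF1 is held inactive by chaperones in resting cells. When unfolded proteins draw the chaperones away, HSF1 forms trimers, enters heat shock promoters at repeats of the letters GAA and TTC, and releases RNA polymerase II that had paused there. HSP70 proteins then bind exposed stretches of unfolded clients, J domain proteins such as DNAJB1 bring the clients and trigger ATP hydrolysis, and exchange factors such as HSPH1 reopen the HSP70 grip. HSP90 proteins take over clients such as kinases at a later stage of folding, and HSPD1 with its lid HSPE1 forms the folding chamber of mitochondria. CDK7, as a part of TFIIH, phosphorylates the RNA polymerase II tail around initiation and promoter escape.

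Total counts were 43.27 to 77.89 M in the SY-351 libraries and 103.7 to 124.2 M in the DMSO libraries, so that 3 counts came to 0.0241 to 0.0693 CPM (counts scaled to a library total of 1 M). This limit covers counting error only. The DMSO libraries fell into pairs: across genes, which are not independent replicates, DMSO 1 correlated with DMSO 2 at a Pearson's r of 0.991 on log2 CPM, and DMSO 3 with DMSO 4 at 0.992, while libraries of different pairs correlated at 0.756 to 0.785. The SY-351 libraries correlated with DMSO 3 and 4 at 0.938 to 0.955 and with DMSO 1 and 2 at 0.716 to 0.748. The GC content of transcripts weighted by their counts was 51.17 to 51.49% in the SY-351 libraries, 57.05 and 57.25% in DMSO 2 and 1, and 50.87 and 50.96% in DMSO 4 and 3. Folds are therefore given with all 4 DMSO libraries and, beside these, with either pair alone, a choice known from earlier results of these data. The labelled cell type was checked on markers: 5 of 8 promyelocyte markers had a row, and MPO, the myeloperoxidase of granules, measured 28258 to 32719 CPM with SY-351 and 12116 to 48112 CPM in DMSO. The other markers went different ways, with CTSG at 586 to 670 CPM with SY-351 and 19.4 to 280 CPM in DMSO, and CEBPE at 66.4 to 74.9 CPM with SY-351 and 159 to 1329 CPM in DMSO. CD33 measured 74.9 to 80.3 CPM with SY-351 and 3.1 to 86.4 CPM in DMSO, and SPI1 measured 284 to 313 CPM with SY-351 and 272 to 2689 CPM in DMSO. The part of these marker differences in the chaperone results was not tested. Summed markers of T cells, erythroid cells, epithelium and fibroblasts stayed at or below 3.81 CPM in every SY-351 library and 2.34 CPM in every DMSO library. The B cell sum was 16 to 17.6 CPM with SY-351 and 5.25 to 13.5 CPM in DMSO, nearly all of it CD79A at 14.5 to 15.9 CPM with SY-351 and 4.53 to 12.5 CPM in DMSO.

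Promoters of the chaperones are shown because HSF1 binds them at known letters, which played no part in how the genes were chosen. RefSeq promoters on GRCh38.p14 (250 bases before to 50 after each listed start) were searched for 3 units of the heat shock element, TTCNNGAANNTTC or its reverse complement GAANNTTCNNGAA, and for 2 units, GAANNTTC or TTCNNGAA, which every 3-unit match also contains. Capitals mark the matched letters, and each line runs 5′ to 3′ on the strand of the gene. Where the match lay within an annotated exon of some transcript, only the site with a few flanking bases is printed.
HSPA8, chr11:123062171-123062199, minus strand: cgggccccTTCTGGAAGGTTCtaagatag
HSP90AA1, chr14:102087112-102087140, minus strand: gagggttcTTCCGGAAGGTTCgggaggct
HSP90AB1, chr6:44247754-44247865, plus strand: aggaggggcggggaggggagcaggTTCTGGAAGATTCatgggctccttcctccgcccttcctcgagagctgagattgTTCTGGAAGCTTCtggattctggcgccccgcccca
HSPD1, chr2:197500062-197500090, minus strand: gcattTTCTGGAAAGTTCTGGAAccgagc
DNAJB1, chr19:14518421-14518498, minus strand: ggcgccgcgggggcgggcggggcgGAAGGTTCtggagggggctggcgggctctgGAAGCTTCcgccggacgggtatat

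The 3-unit letters stood in 172 of 35116 listed promoters (0.49%) and the 2-unit letters in 4737 (13.5%). HSPA8 held 2 matches of the 3-unit letters, the printed one beginning 55 bases before the start. HSP90AB1 held 2 in the third of its listed promoters, beginning 165 and 112 bases before that start, and HSP90AA1 held 1 in its second listed promoter, 88 bases before the start. HSPD1 held 2 that overlap each other in its second listed promoter, where they lie in an HSPE1 exon on the other strand. DNAJB1 had only 2-unit matches in these windows, at 77 and 47 bases before the start of its second promoter, and HSPH1 and HSPE1 had neither form in theirs. A match of letters is a description of the sequence and no evidence of binding in these cells.

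Of the 6 measured chaperones, HSPH1 and DNAJB1 fell with SY-351 when all 8 libraries were fitted, and 0 rose, at an adjusted p below 0.05 (edgeR quasi-likelihood test, adjusted over 15472 genes). In the same fit 13.6% of all genes tested were called lower and 2.91% higher. At an unadjusted p below 0.05 the members again gave 2 lower and 0 higher, beside 3492 lower and 1435 higher of 15472 genes. DESeq2 also called 2 lower and 0 higher after adjustment, beside 21.4% of all genes lower and 6.51% higher. In CPM scaled by TMM, all SY-351 values were lower than all DMSO values for HSPH1 and DNAJB1 and higher for HSP90AB1. Such a separation was shown by 18.2% of all genes downwards and 15.5% upwards. That of HSP90AB1 depended on the scaling. By rank of counts within a library it stood 84th to 94th with SY-351 and 36th in both DMSO 3 and DMSO 4. With DMSO 3 and 4 as the only controls, HSPA8 was lower as well, which made 3 lower and 0 higher, beside 26.4% and 21.9% of all genes. Against these 2 libraries the groups, in the same scaled CPM, separated downwards for HSPA8, HSPH1 and DNAJB1 and upwards for HSP90AB1. They did so for 29.7% and 26.7% of all genes. With DMSO 1 and 2 as the only controls, HSPA8, HSP90AA1, HSP90AB1 and HSPD1 were called higher and HSPH1 and DNAJB1 lower, beside 40.8% of all genes higher and 38.4% lower. The bulk counts are relative to each library, so lower and higher mean relative to the other transcripts. A change in total RNA per cell is not seen. Fewer cells with a transcript and less of it per cell cannot be told apart.

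**Figure D1:**
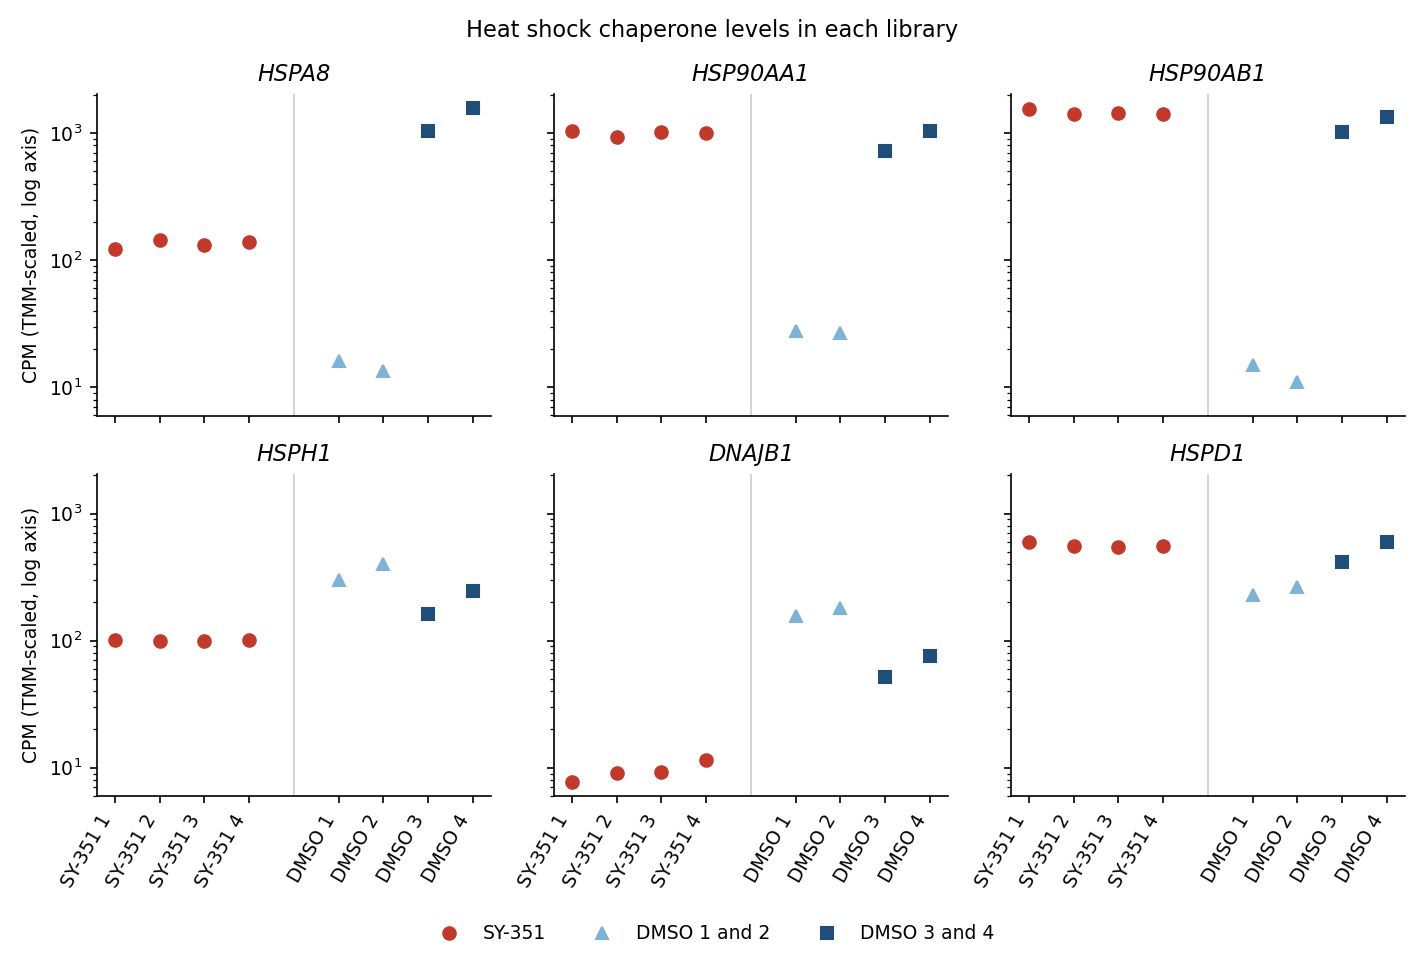
Level of each measured chaperone in each library, in CPM scaled by TMM on a log axis, with the 4 SY-351 libraries on the left and the 4 DMSO libraries on the right of each panel. The SY-351 libraries lie close together for every gene, while DMSO 1 and 2 (triangles) and DMSO 3 and 4 (squares) lie far apart for HSPA8, HSP90AA1 and HSP90AB1.

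DNAJB1 is the J domain cochaperone that delivers unfolded clients to HSP70 and is itself strongly heat-inducible. It (NM_001313964, chr19:14514764-14529322, minus strand, counted from transcript start to end with introns) measured 7.75, 9.14, 9.21 and 11.5 CPM in SY-351 replicates 1 to 4, against 157, 181, 51.8 and 75.6 CPM in DMSO replicates 1 to 4. Every SY-351 library lay below every DMSO library, and the DMSO pairs differed from each other by less than either differed from SY-351. The mean was 9.39 ± 1.54 CPM with SY-351 and 116 ± 62.3 CPM in DMSO (SD, n = 4 each). The fold was -3.63 ± 0.47 on the log2 scale (SE, edgeR adjusted p = 0.00424), a level 12.4-fold lower with SY-351. Only 1.96% of the genes tested had a more negative fold.

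The fall of DNAJB1 was also present against each pair of controls. The log2 fold was -2.74 ± 0.15 with DMSO 3 and 4 (SE, adjusted p = 3.27e-69, edgeR) and -4.32 ± 0.15 with DMSO 1 and 2 (SE, adjusted p = 5.2e-09, edgeR). These small p-values rest on a spread pooled across genes and on 2 control libraries. Leaving out each library in turn gave log2 folds of -3.84 to -3.34, and the call held in 8 of 8 fits. Its counts were 509 to 755 reads in the SY-351 libraries and 10343 to 12295 in the DMSO libraries. By rank within a library DNAJB1 was the 7232nd to 8083rd most counted gene with SY-351 and the 1714th to 2993rd in DMSO.

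HSPH1, the large HSP70-like protein known as HSP105, releases ADP from HSP70 and helps to dissolve aggregates. It (NM_001286505, chr13:31134974-31162388, minus strand) measured 101, 100, 99.9 and 102 CPM with SY-351, against 301, 401, 163 and 245 CPM in DMSO. The groups did not overlap, and the SY-351 libraries differed from each other far less than the DMSO libraries did. The mean was 101 ± 0.951 CPM with SY-351 and 277 ± 100 CPM in DMSO (SD, n = 4 each). The fitted log2 fold of -1.46 ± 0.33 passed (SE, adjusted p = 0.0225, edgeR), or 2.75-fold lower with SY-351. Against DMSO 3 and 4 it was -1.0 ± 0.15 (SE, adjusted p = 8.3e-10, edgeR), and against DMSO 1 and 2 it was -1.94 ± 0.10 (SE, adjusted p = 8.85e-08, edgeR). The call was lost without any one of the SY-351 libraries 1 to 4, at adjusted p of 0.0955, 0.0915, 0.0959 and 0.0887 in that order, and without DMSO 1, at 0.0534, while the log2 fold stayed between -1.61 and -1.23 over all 8 such edgeR fits.

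HSPA8, the constitutive HSP70 of the cytosol, folds new chains and strips clathrin from vesicles. It (NM_153201, chr11:123057489-123062136, minus strand) measured 123, 143, 132 and 138 CPM with SY-351, against 16.2, 13.4, 1042 and 1570 CPM in DMSO replicates 1 to 4. All 4 SY-351 libraries lay between the DMSO pairs, above DMSO 1 and 2 and below DMSO 3 and 4. The mean was 134 ± 8.41 CPM with SY-351 and 660 ± 776 CPM in DMSO (SD, n = 4 each), and the log2 fold of -2.30 ± 1.34 did not pass (SE, adjusted p = 0.279, edgeR). Its direction depended on the controls: -3.26 ± 0.16 with DMSO 3 and 4 (SE, adjusted p = 3.21e-90, edgeR), or 9.59-fold lower, and 3.04 ± 0.12 with DMSO 1 and 2 (SE, adjusted p = 1.3e-08, edgeR), or 8.22-fold higher. In the fit with DMSO 3 and 4, 0.392% of the genes tested had a more negative fold than HSPA8. HSPA8 ranked 1109th to 1328th by counts in the SY-351 libraries, 35th and 30th in DMSO 3 and 4, and 5941st and 6133rd in DMSO 1 and 2.

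HSP90AA1 is the stress-inducible form of cytosolic HSP90 and HSP90AB1 the constitutive one. HSP90AA1 (NM_001017963, chr14:102080742-102139749, minus strand) measured 1036, 936, 1013 and 1010 CPM with SY-351, against 27.5, 26.5, 721 and 1047 CPM in DMSO. HSP90AB1 (NM_001271970, chr6:44246166-44253888, plus strand) measured 1543, 1408, 1449 and 1413 CPM with SY-351, against 14.9, 10.9, 1019 and 1343 CPM in DMSO. The SY-351 values of both genes were close to those of DMSO 3 and 4 and far above those of DMSO 1 and 2. In these scaled CPM every SY-351 library lay above every DMSO library for HSP90AB1, while for HSP90AA1 the groups overlapped. By rank of counts, which needs no scaling, HSP90AB1 was 84th to 94th with SY-351, below its 36th place in DMSO 3 and 4. HSP90AA1 was 127th to 134th with SY-351, below its 64th and 59th places in DMSO 3 and 4. In DMSO 1 and 2 HSP90AA1 was 4996th and 5048th and HSP90AB1 6079th and 6461st.

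Neither HSP90 gene passed the test with all 8 libraries. The log2 fold was 1.13 ± 1.10 for HSP90AA1 (SE, adjusted p = 0.505, edgeR) and 1.28 ± 1.32 for HSP90AB1 (SE, adjusted p = 0.53, edgeR). Against DMSO 3 and 4 the log2 folds were 0.20 ± 0.17 (SE, adjusted p = 0.363, edgeR) for HSP90AA1 and 0.32 ± 0.17 (SE, adjusted p = 0.11, edgeR) for HSP90AB1. Both were higher than in DMSO 1 and 2, with log2 folds of 5.07 ± 0.09 for HSP90AA1 (SE, adjusted p = 2.01e-10, edgeR) and 6.67 ± 0.16 for HSP90AB1 (SE, adjusted p = 6.25e-10, edgeR). With DMSO 3 and 4 and total count scaling in place of TMM the log2 folds turned to -0.22 and -0.10, while the median of all genes shifted to -0.45. A p above the threshold does not show that the HSP90 mRNAs did not differ from DMSO 3 and 4.

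HSPD1, the HSP60 subunit of the mitochondrial folding chamber, varied least between the DMSO pairs after HSPH1. It (NM_199440, chr2:197486584-197500274, minus strand) measured 601, 556, 548 and 557 CPM with SY-351, against 229, 265, 418 and 598 CPM in DMSO. In these scaled CPM the SY-351 libraries overlapped with DMSO 4 alone. By rank of counts within a library HSPD1 was 215th to 228th with SY-351, below its 143rd and 129th places in DMSO 3 and 4. It was 1391st and 1215th in DMSO 1 and 2. The mean was 566 ± 24 CPM with SY-351 and 377 ± 168 CPM in DMSO (SD, n = 4 each), with a log2 fold of 0.58 ± 0.39 (SE, adjusted p = 0.336, edgeR). It was 0.18 ± 0.16 against DMSO 3 and 4 (SE, adjusted p = 0.417, edgeR) and 1.05 ± 0.081 against DMSO 1 and 2 (SE, adjusted p = 1.52e-06, edgeR). With DMSO 3 and 4 and total count scaling it turned to -0.24, against the same shift of -0.45 over all genes.

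**Figure D2:**
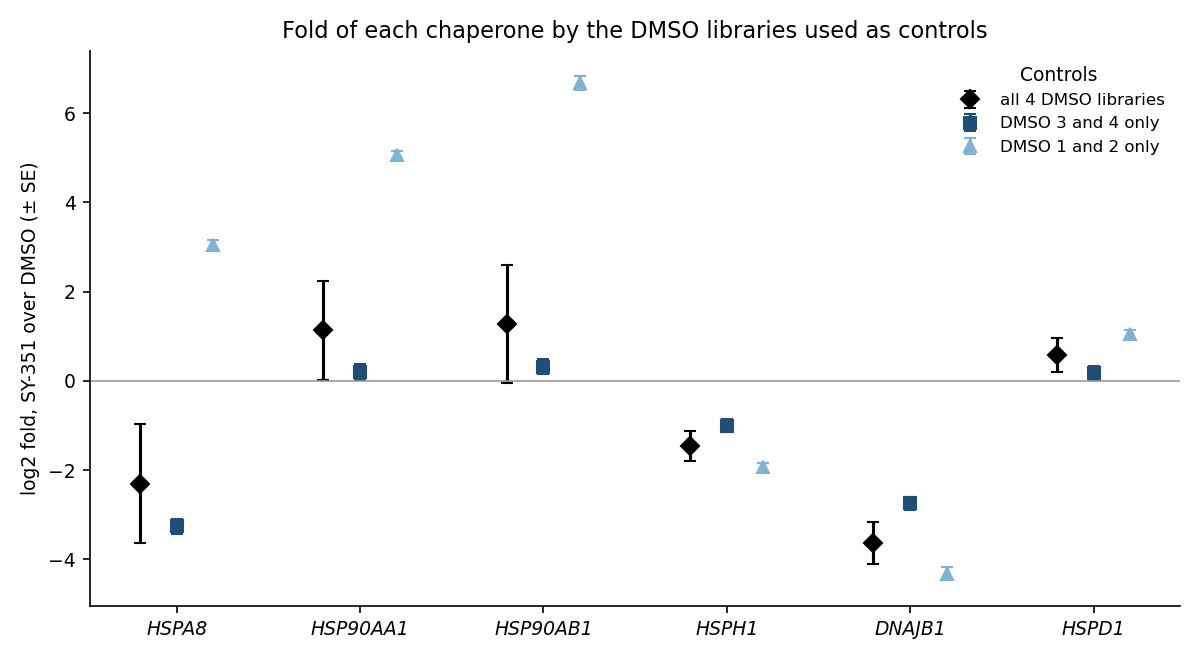
The log2 fold of SY-351 over DMSO for each chaperone (vertical axis, ± SE from edgeR), with all 4 DMSO libraries, DMSO 3 and 4, or DMSO 1 and 2 as controls. DNAJB1 and HSPH1 lie below 0 with each set of controls, HSPA8 lies at -3.26 with DMSO 3 and 4 and at 3.04 with DMSO 1 and 2, and the other 3 genes lie near 0 with DMSO 3 and 4.

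The difference between the DMSO pairs was itself uneven over the chaperones. The log2 ratio of mean CPM in DMSO 1 and 2 over DMSO 3 and 4 was -6.52 for HSP90AB1, -6.47 for HSPA8, -5.03 for HSP90AA1, -1.04 for HSPD1, 0.78 for HSPH1 and 1.41 for DNAJB1. The GC content of the longest annotated coding transcript was 48.1, 47, 45.2, 44.2, 40 and 53% for these 6 genes in the same order. The 3 genes that were far lower in DMSO 1 and 2 had GC contents between those of HSPD1 and DNAJB1. The part that transcript GC content plays in these differences was not tested.

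Ratios of counts within a library do not depend on how libraries are scaled, and were examined after the values above had been seen. HSPA8 counts were 0.08, 0.102, 0.0913 and 0.0979 of the HSP90AB1 counts in SY-351 replicates 1 to 4, against 1.09, 1.23, 1.02 and 1.17 in DMSO replicates 1 to 4. Both DMSO pairs thus gave near-equal counts of the constitutive HSP70 and HSP90 mRNAs, although the levels of each gene differed widely between the pairs, and the highest SY-351 ratio was well below the lowest DMSO ratio. The difference of the mean log2 ratios was -3.61 (exact permutation test over samples, two-sided, p = 0.0286, the smallest that 4 against 4 can give, adjusted p = 0.0429 over 15 ratios). It was -3.57 without DMSO 1 and 2 and -3.65 without DMSO 3 and 4.

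HSPA8 was likewise low relative to HSP90AA1. That ratio was 0.119, 0.153, 0.131 and 0.137 with SY-351 and 0.588, 0.506, 1.44 and 1.5 in DMSO, a log2 difference of -2.74 (exact permutation test, p = 0.0286, adjusted p = 0.0429). DNAJB1 fell further than HSPH1, as the ratio of HSPH1 to DNAJB1 shows: it was 13.1, 11, 10.9 and 8.88 with SY-351, against 1.91, 2.22, 3.14 and 3.25 in DMSO. The log2 difference was 2.08 (exact permutation test, p = 0.0286, adjusted p = 0.0429), and it was 1.76 without DMSO 1 and 2 and 2.40 without DMSO 3 and 4. The HSP90AA1 to HSP90AB1 ratio was 0.671, 0.665, 0.699 and 0.715 with SY-351, against 1.85, 2.43, 0.707 and 0.779 in DMSO, and its groups overlapped (exact permutation test, p = 0.0571, adjusted p = 0.0779).

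In 10 of the 15 pairs of measured chaperones the groups did not overlap. All 10 reached the smallest possible p of 0.0286 (exact permutation test), so their common adjusted p of 0.0429 is set by how many reached it. The 15 ratios come from 6 genes, 3 of which separated the groups on their own in scaled CPM, so they are not separate results. The share among pairs of other genes was not computed, so the count of 10 cannot be called particular to the chaperones. Among all single genes, 18.2% separated the groups downwards and 15.5% upwards. The ratio of DNAJB1 to HSPD1 was 0.0129, 0.0164, 0.0168 and 0.0206 with SY-351, against 0.687, 0.682, 0.124 and 0.126 in DMSO, with a log2 difference of -4.15. HSPH1 to HSPD1 gave 0.169 to 0.183 with SY-351 and 0.389 to 1.51 in DMSO, with a log2 difference of -2.07. The ratios of HSPA8 to HSPH1, DNAJB1 and HSPD1 overlapped between the groups. Without DMSO 1 and 2 their log2 differences were -2.27, -0.50 and -3.43, and without DMSO 3 and 4 they were 4.97, 7.37 and 1.99. HSP90AB1 to HSPD1 did not overlap either, but its log2 difference was 0.13 without DMSO 1 and 2 and 5.64 without DMSO 3 and 4.

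**Figure D3:**
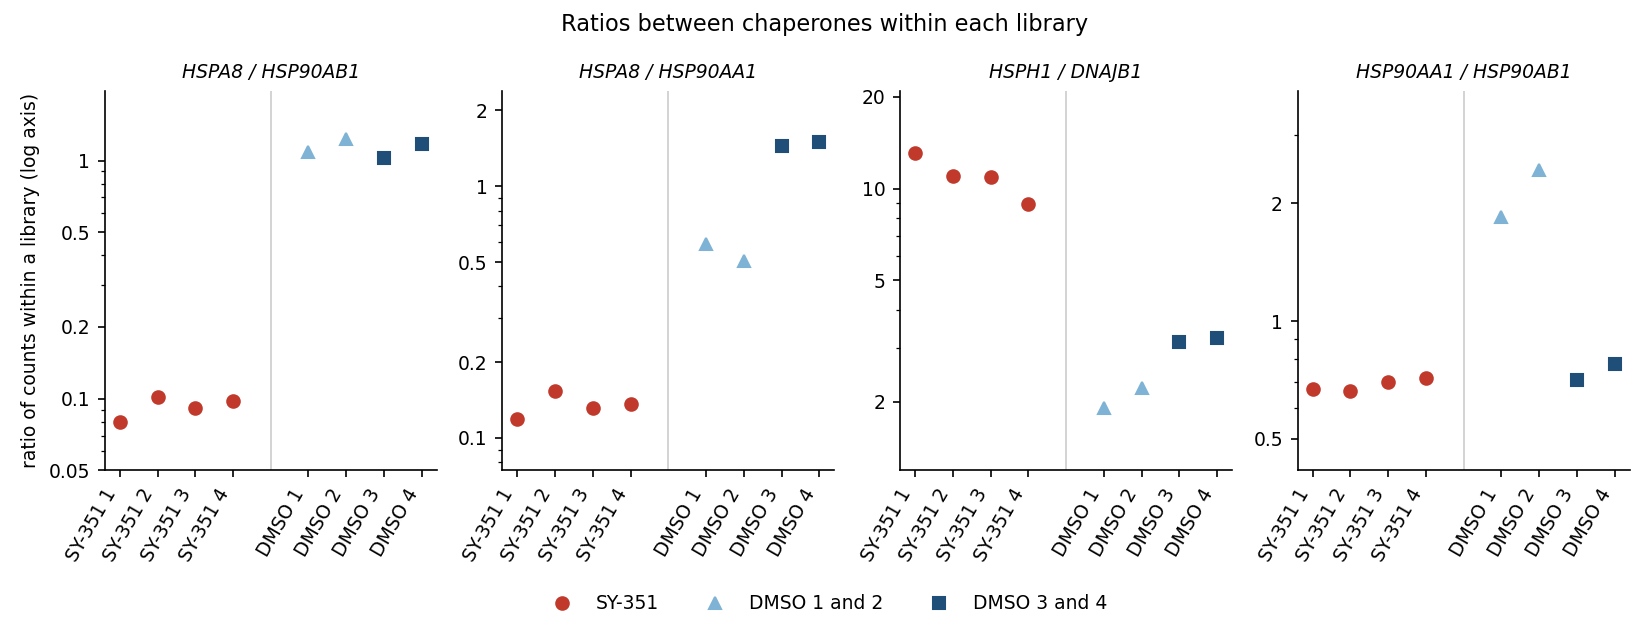
Ratio of the counts of a pair of chaperones within each library (vertical log axis), with SY-351 libraries left of DMSO libraries in each panel. For HSPA8 over HSP90AB1 the SY-351 libraries lie at 0.08 to 0.102 and all 4 DMSO libraries at 1.02 to 1.23, whereas for HSP90AA1 over HSP90AB1 DMSO 3 and 4 lie beside the SY-351 libraries.

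Per kilobase of the longest annotated transcript, the order of the chaperones differed between the groups. With SY-351 the level was 543 CPM per kb for HSP90AB1 (526 to 577 over 4 libraries), 285 for HSP90AA1 (267 to 295), 230 for HSPD1 (223 to 245), 54.5 for HSPA8 (50.1 to 58), 19.4 for HSPH1 (19.3 to 19.6) and 4.15 for DNAJB1 (3.42 to 5.07), and no neighbours in this order overlapped. In DMSO 3 and 4 HSPA8 came first at 530 CPM per kb (423 and 638, in that order of libraries) and HSP90AB1 second at 442 (381 and 502). HSP90AA1 at 252 (205 and 298), HSPD1 at 207 (170 and 244), HSPH1 at 39.3 (31.3 and 47.3) and DNAJB1 at 28.1 (22.9 and 33.4) followed. All of these genes were higher in DMSO 4, so some neighbours overlapped across the libraries, but within each library the order was the same. In DMSO 1 and 2 HSPD1 led at 101 CPM per kb (93.3 and 108), followed by DNAJB1 at 74.6 and HSPH1 at 67.6, while HSP90AA1, HSPA8 and HSP90AB1 measured 7.68, 6 and 4.82. Counts include introns and the length does not, so these levels are approximate.

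HSPE1, the lid of the HSPD1 chamber, is transcribed away from HSPD1 from a shared promoter region. Its row (NM_002157, chr2:197500379-197503449, plus strand) was listed at 0 in all 8 libraries, as was that of its downstream neighbour MOB4, and both intervals lie inside that of the read-through gene HSPE1-MOB4 on the same strand. That row had 12847 bases to itself, chr2:197503450-197516296, between the end of HSPE1 and the start of MOB4. It was described after the HSPE1 row was seen to be empty. The read-through row held 116, 130, 101 and 80 counts with SY-351, against 31, 54, 108 and 93 counts in DMSO, which is 1.46, 1.57, 1.54 and 1.8 CPM with SY-351 and 0.437, 0.793, 0.541 and 0.659 CPM in DMSO.

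All 4 SY-351 libraries thus lay above all 4 DMSO libraries in this stretch downstream of HSPE1. The mean was 1.59 ± 0.146 CPM with SY-351 and 0.608 ± 0.153 CPM in DMSO (SD, n = 4 each), with a log2 fold of 1.39 ± 0.28 (SE, adjusted p = 0.0152, edgeR), or 2.62-fold higher. The fold was 1.43 ± 0.37 on the log2 scale against DMSO 3 and 4 (SE, adjusted p = 0.000361, edgeR) and 1.23 ± 0.30 against DMSO 1 and 2 (SE, adjusted p = 0.0044, edgeR). The call was lost without any one of SY-351 libraries 1 to 4, at adjusted p of 0.0602, 0.0642, 0.0621 and 0.0633 in that order (edgeR). These reads may come from HSPE1 transcripts that ran on, from HSPE1-MOB4, or from MOB4 transcripts that start before the counted MOB4 interval. Counts per row cannot tell these apart, and they give no level of HSPE1 itself.

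The authors' deposited table of local splicing variations had 0 entries for the 10 genes under their own names, among 6716 variations in 3700 genes, of which 55.7% had a posterior probability above 0.95. It held 1 variation for HSPE1-MOB4, with 5 junctions that leave an exon of 165 bases, the length of the second exon of HSPE1 and of the read-through gene. In the authors' deposited table an unannotated junction across 245 bases had an expected inclusion of 0.926 with SY-351 and 0.482 in the control, with the authors' own expected difference of 0.457 (here SY-351 minus control) and a probability of 0.997 for a difference of at least 0.2. An unannotated junction to an exon of 101 bases had 0.004 with SY-351 and 0.255 in the control, a difference of -0.225 with a probability of 0.623 in the authors' deposited table. The only annotated junction there, to the exon of 63 bases, had 0.043 with SY-351 and 0.073 in the control in the authors' deposited table. That table gives no values per sample, so the replicate spread behind these values was not examined.

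The rest of the chaperone system was examined in 8 lists by role, 140 genes in all with 128 rows, of which 122 were tested. With all 8 libraries 29 of the 122 passed towards lower levels and 0 towards higher ones, with a median log2 fold of -0.68. Over all genes 13.6% were lower and 2.91% higher in this fit, with a median of 0.0037. At an unadjusted p below 0.05 these were 46 lower and 3 higher, beside 3492 lower and 1435 higher of 15472 genes. DESeq2 called 43 lower and 1 higher of 126 genes after adjustment, beside 21.4% lower and 6.51% higher over all genes. The count of 29 was 3 to 5 without any one SY-351 library, 16 without DMSO 1, 16 without DMSO 2 and 48 without DMSO 3. Over all genes the 2100 called lower became 473 to 602, 1264, 1458 and 3438 in the same fits, in that order. Against DMSO 3 and 4 alone 56 of 123 were lower and 27 higher, with a median of -0.31, beside 26.4% lower, 21.9% higher and a median of 0.012 over all genes. With DMSO 1 and 2 alone 67 of 122 were lower and 41 higher, with a median of -0.88, beside 38.4% lower, 40.8% higher and a median of 0.19 over all genes. The counts of each list below stand against these same shares, and those without a library against the same changes over all genes.

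Regulators of HSF1 were also called in both directions with DMSO 3 and 4. Of 11 tested genes of the HSF family and its regulators, 3 were lower and 0 higher with all 8 libraries (median log2 fold -0.34), 4 were lower and 5 higher with DMSO 3 and 4 (median 0.18), and 6 were lower and 4 higher with DMSO 1 and 2 (median -0.53). The count of 3 was 0 or 1 without any one SY-351 library. The acetyltransferases EP300 and CREBBP, which acetylate HSF1 among many proteins, fell with log2 folds of -1.47 ± 0.26 (SE, adjusted p = 0.00922, edgeR) and -2.67 ± 0.54 (SE, adjusted p = 0.0154, edgeR). SIRT1, a deacetylase of HSF1, fell with a log2 fold of -1.36 ± 0.29 (SE, adjusted p = 0.0167, edgeR). The log2 folds of EP300, CREBBP and SIRT1 were -1.61, -1.40 and -1.11 against DMSO 3 and 4, and against DMSO 1 and 2 they were -1.44, -3.47 and -1.71. EEF1A1, an elongation factor, did not pass at a log2 fold of 2.24 with all 8 libraries, was higher against DMSO 3 and 4 at 1.29 (adjusted p = 2.51e-12, edgeR), and stood at 7.15 against DMSO 1 and 2. VCP, an ATPase that extracts ubiquitinated proteins, had log2 folds of -0.82 with all 8 libraries, -0.20 against DMSO 3 and 4 and -1.39 against DMSO 1 and 2, and the first 2 did not pass.

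Among 14 tested heat-inducible genes other than the 10, 4 were lower and 0 higher with all 8 libraries (median log2 fold -0.79), 9 were lower and 1 higher with DMSO 3 and 4 (median -0.81), and 8 were lower and 6 higher with DMSO 1 and 2 (median -1.03). The count of 4 was 0 without any one SY-351 library, 1 without DMSO 1, 1 without DMSO 2 and 7 without DMSO 3. BAG3, the heat-inducible HSP70 partner in selective autophagy, measured 0.391, 0.653, 0.0609 and 0.203 CPM with SY-351, against 4.09, 3.06, 0.997 and 1.12 CPM in DMSO, with a log2 fold of -2.80 ± 0.77 (SE, adjusted p = 0.0413, edgeR). In SY-351 replicate 3 it was close to the level of 3 counts, 0.0489 CPM, so the size of this fold is uncertain. DEDD2, a death effector domain protein, fell with a log2 fold of -2.95 (adjusted p = 0.0124, edgeR). IER5, an immediate early gene that acts on HSF1, fell with a log2 fold of -2.55 (adjusted p = 0.0407, edgeR). BAG3, DEDD2 and IER5 had log2 folds of -1.63, -1.62 and -0.64 against DMSO 3 and 4 and of -3.53, -3.77 and -3.49 against DMSO 1 and 2. UBB, which encodes polyubiquitin, did not pass with all 8 libraries (log2 fold -0.061, adjusted p = 0.976, edgeR) and was lower against DMSO 3 and 4 with a log2 fold of -1.01, against 4.62 with DMSO 1 and 2 as controls. It measured 94.8 to 101 CPM with SY-351 and 3.03 to 232 CPM in DMSO, so that, as for HSPA8, the SY-351 libraries lay between the DMSO pairs.

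Of 15 tested HSP70 relatives and exchange factors, 6 were lower and 0 higher with all 8 libraries (median log2 fold -1.31), 10 were lower and 2 higher with DMSO 3 and 4 (median -1.15), and 9 were lower and 3 higher with DMSO 1 and 2 (median -1.57). The count of 6 was 1 to 3 without any one SY-351 library. HSPA5, the HSP70 of the endoplasmic reticulum known as BiP, measured 326, 291, 290 and 279 CPM with SY-351, against 1115, 1186, 622 and 875 CPM in DMSO. It fell with a log2 fold of -1.68 ± 0.35 (SE, adjusted p = 0.0164, edgeR), and with -1.31 and -2.10 against DMSO 3 and 4 and DMSO 1 and 2. HSPA9, the mitochondrial HSP70, measured 246 to 260 CPM with SY-351 and 200 to 268 CPM in DMSO and did not pass (log2 fold 0.14, adjusted p = 0.736, edgeR). HSPA2, BAG2 and GRPEL2 also fell, with log2 folds of -5.07, -2.58 and -1.53 at adjusted p of 0.00669, 0.00882 and 0.00922 (edgeR). Their log2 folds were -3.72, -1.69 and -1.59 against DMSO 3 and 4, and against DMSO 1 and 2 -5.95, -3.27 and -1.58. HSPA2 measured 0.0457 to 0.158 CPM with SY-351, close to the level of 3 counts, so the size of its fold is uncertain.

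Of 32 tested J domain genes other than DNAJB1, 8 were lower and 0 higher with all 8 libraries (median log2 fold -0.30), 15 were lower and 5 higher with DMSO 3 and 4 (median -0.38), and 14 were lower and 11 higher with DMSO 1 and 2 (median -0.17). The count of 8 was 2 without any one SY-351 library, 4 without DMSO 1 and 4 without DMSO 2. DNAJA1 and DNAJA2, which like DNAJB1 serve cytosolic HSP70, were among the 8. DNAJA1 measured 19.7, 21.4, 20 and 23.7 CPM with SY-351, against 128, 99.4, 109 and 160 CPM in DMSO, with a log2 fold of -2.55 ± 0.27 (SE, adjusted p = 0.00291, edgeR) and of -2.64 and -2.57 against DMSO 3 and 4 and DMSO 1 and 2. DNAJA2 measured 12.1, 12.9, 12 and 14.8 CPM with SY-351, against 111, 123, 51.3 and 68.6 CPM in DMSO, with a log2 fold of -2.77 ± 0.35 (SE, adjusted p = 0.00354, edgeR) and of -2.19 and -3.31 against the same pairs. DNAJB12, a J domain protein of the endoplasmic reticulum membrane, and DNAJC5, which guards vesicle fusion proteins, fell with log2 folds of -1.80 and -1.63 at adjusted p of 0.0108 and 0.0479 (edgeR), with -1.23 and -0.64 against DMSO 3 and 4, and with -2.34 and -2.35 against DMSO 1 and 2. SEC63, the J domain protein of the endoplasmic reticulum translocon, had a log2 fold of 1.17 and did not pass (adjusted p = 0.242, edgeR), but was higher against DMSO 3 and 4 at 0.43 (adjusted p = 0.0176, edgeR) and stood at 2.73 against DMSO 1 and 2.

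HSP90 paralogs and cochaperones were called in both directions with DMSO 3 and 4. Of 23 tested, 2 were lower and 0 higher with all 8 libraries (median log2 fold -0.68), 7 were lower and 8 higher with DMSO 3 and 4 (median -0.10), and 14 were lower and 7 higher with DMSO 1 and 2 (median -1.22). The count of 2 was 0 without any one SY-351 library, 0 without DMSO 1, 0 without DMSO 2 and 9 without DMSO 3. HSP90B1, the HSP90 of the endoplasmic reticulum, measured 1338, 1237, 1232 and 1265 CPM with SY-351, against 442, 352, 716 and 951 CPM in DMSO. It did not pass with all 8 libraries (log2 fold 1.04, adjusted p = 0.127, edgeR) and was higher against DMSO 3 and 4 (log2 fold 0.63, adjusted p = 0.000767, edgeR), with 1.53 against DMSO 1 and 2. PTGES3, the cochaperone p23, had a log2 fold of -1.77 (adjusted p = 0.105, edgeR), with -0.081 against DMSO 3 and 4 and -2.67 against DMSO 1 and 2. CDC37L1, a relative of the kinase cochaperone CDC37, fell with a log2 fold of -1.24 (adjusted p = 0.0417, edgeR), with -0.72 against DMSO 3 and 4 and -1.76 against DMSO 1 and 2.

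In the cytosolic chaperonin TRiC and prefoldin, 3 of 15 tested genes were lower and 0 higher with all 8 libraries (median log2 fold 0.22), 7 were lower and 3 higher with DMSO 3 and 4 (median -0.072), and 6 were lower and 9 higher with DMSO 1 and 2 (median 2.15). The count of 3 was 0 without any one SY-351 library. The TRiC subunits CCT4 and CCT6A fell with log2 folds of -2.93 and -1.53 at adjusted p of 0.0154 and 0.0344 (edgeR), while TCP1 and CCT7, which are subunits of the same ring, had log2 folds of -0.68 and 0.31 and did not pass. The log2 folds of CCT4, CCT6A, TCP1 and CCT7 were -1.55, -0.81, -0.072 and 0.12 against DMSO 3 and 4, and against DMSO 1 and 2 they were -3.77, -2.14, -1.25 and 0.43. PDRG1, a prefoldin-like protein, fell with a log2 fold of -1.43 (adjusted p = 0.0162, edgeR), with -1.10 against DMSO 3 and 4 and -1.83 against DMSO 1 and 2.

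Of 10 tested mitochondrial chaperones and proteases, 3 were lower and 0 higher with all 8 libraries (median log2 fold -0.79), 4 were lower and 2 higher with DMSO 3 and 4 (median -0.24), and 8 were lower and 1 higher with DMSO 1 and 2 (median -1.19). The count of 3 was 0 without any one SY-351 library, 0 without DMSO 1, 0 without DMSO 2 and 6 without DMSO 3 and, with no filter on low counts, 0. With no filter 1867 genes were lower in all. These 3 were CLPX, AFG3L2 and HTRA2, with log2 folds of -1.11, -0.99 and -2.73 at adjusted p of 0.0389, 0.0394 and 0.0464 (edgeR). Against DMSO 3 and 4 they were -0.64, -0.69 and -0.53, and against DMSO 1 and 2 -1.60, -1.37 and -3.71, so that HTRA2 lay much closer to DMSO 3 and 4 than its fold with all 8 libraries shows. The abundant proteases LONP1 and YME1L1 had log2 folds of -1.80 and -0.32 and did not pass (adjusted p of 0.0875 and 0.464, edgeR), with -0.23 and 0.0048 against DMSO 3 and 4 and -2.67 and -0.72 against DMSO 1 and 2. Of the small heat shock proteins 2 were tested, HSPB6 and HSPB9, and neither passed with all 8 libraries, with log2 folds of -0.19 and -2.01. HSPB9 measured 0.0761 to 0.158 CPM with SY-351, close to the level of 3 counts, so the size of its fold is uncertain. HSPB6 was higher against DMSO 3 and 4 at 1.36 (adjusted p = 0.00217, edgeR) and stood at -1.07 against DMSO 1 and 2.

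**Figure D4:**
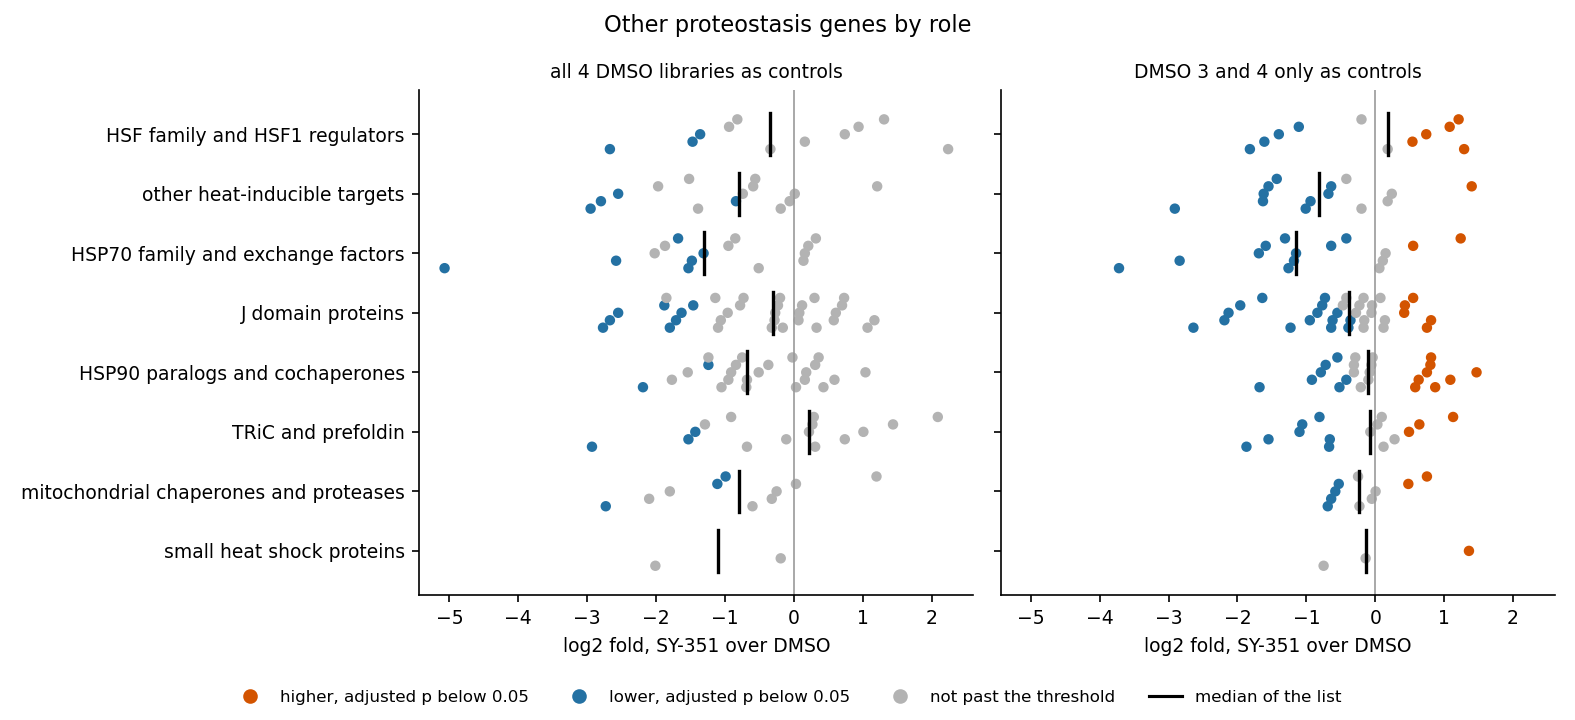
The log2 fold of SY-351 over DMSO (horizontal axis) for each tested gene of 8 role lists, with all 4 DMSO libraries as controls on the left and DMSO 3 and 4 alone on the right; colour marks the edgeR call and the black bar is the median of the list. On the left 29 genes are called lower and 0 higher, and on the right 56 are called lower and 27 higher.

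The genes whose levels were most like those of DNAJB1 over the 8 libraries were BRF2, a factor of RNA polymerase III transcription, DNAJA2 and SNX20, a sorting nexin. Each had a Pearson's r of 0.999 with DNAJB1 on log2(CPM + 0.5), among 8221 genes of at least 10 CPM. This is a description over 4 SY-351 and 4 DMSO libraries that share their group and pair structure, and r was 0.998 for each without DMSO 1 and 2. BRF2, DNAJA2 and SNX20 had log2 folds of -2.82, -2.77 and -4.21 with all 8 libraries and -2.11, -2.19 and -3.14 with DMSO 3 and 4.

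Genes outside the 10 whose promoters hold the 3-unit heat shock letters were counted in the same way. Of 64 such genes that were tested, 7 were lower and 2 higher with all 8 libraries, with a median log2 fold of 0.13, beside 13.6% lower, 2.91% higher and a median of 0.0037 over all genes. Against DMSO 3 and 4 they were 13 lower and 17 higher, with a median of 0.021, beside 26.4% lower, 21.9% higher and a median of 0.012 over all genes. Among the measured chaperones, those with the 3-unit letters (HSPA8, HSP90AA1, HSP90AB1 and HSPD1) were the ones not called with all 8 libraries, and the 2 called lower, HSPH1 and DNAJB1, were those without them in the windows searched. This split does not hold against DMSO 3 and 4, where HSPA8 was lower at -3.26. Against DMSO 1 and 2 all 4 genes with the letters were called higher and HSPH1 and DNAJB1 lower, beside 40.8% of all genes higher and 38.4% lower. The split was not tested.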

How the data were processed

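Per the labels' protocols, poly(A) RNA of HL60 cells was sequenced from Illumina TruSeq RNA libraries. The authors deposited whole-number read counts per gene, which featureCounts 1.6.2 made, counting 1 strand only, per the file headers. The kit is not named as stranded, but 0 rows on the opposite strand overlap the measured members. Each row is 1 RefSeq transcript interval with its introns, and the 6 measured members overlap 0 other rows on their strand. Per the submitters' processing notes the genome was GRCh38, and 99.66% of the rows lay on their gene's place there. Columns not used numbered 0. No source used here says how technical repeats A and B were joined into 1 column. The authors' deposited table of splicing variations holds expected inclusion, its difference (control minus SY-351, turned round here) and a posterior probability, on another build, so none of its coordinates are printed.

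Identifiers were matched to symbols through RefSeq (17871 rows) and GENCODE (130 rows), 92 rows kept their identifier and 13 repeated symbols were set aside. For all 8 libraries the test was edgeR's quasi-likelihood test, version 4.0.16 under R 4.3.3 (TMM, filterByExpr, robust glmQLFit and glmQLFTest, two-sided, group as the only term, Benjamini-Hochberg over all genes tested, threshold 0.05). CPM are TMM-scaled, and SE was taken as log2 fold over the root of the F statistic. The members and role lists were chosen with earlier results of these data known. The text names all members, in each role list the 2 genes of highest CPM and up to 3 of smallest adjusted p, and the 3 genes most like DNAJB1. Some genes that this rule names are not reported here. Alternatives were DESeq2 1.42.0, other scalings, no filter, a replicate block, leaving out each library, and either DMSO pair alone. Promoter sequences are from RefSeq on GRCh38.p14. Exact permutation tests used SciPy 1.17.1.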

Additional observations from a re-analysis of the deposited data

How the results depend on the processing

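The log2 folds of DNAJB1 and HSPH1 were below 0 under all alternatives run. A replicate block ended both calls, with log2 folds of -3.47 for DNAJB1 (adjusted p = 0.0699, edgeR) and -1.39 for HSPH1 (adjusted p = 0.136, edgeR). It left 0 of the members, 0 of the role-list genes and 0 genes higher or lower in all, against 1361 higher and 2288 lower at an unadjusted p below 0.05. Deviations of same-numbered libraries from their group means correlated at 0.000557, -0.0332, 0.00665 and -0.134. The deviations in DMSO mostly follow its pairs, with r of 0.923 and 0.905 within pairs and -0.963 to -0.951 between them. These values therefore cannot decide whether the replicate numbers pair the libraries.

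The DMSO pair used as control moved HSPA8, both HSP90 genes and HSPD1. With DMSO 3 and 4 alone, 3466 genes were higher and 4172 lower, role-list genes 27 higher and 56 lower, and HSPA8 passed at -3.26. With DMSO 1 and 2 alone, 6372 genes were higher and 5996 lower, role-list genes 41 higher and 67 lower, members 4 higher, and the log2 folds were 3.04 for HSPA8 (reversed), 5.07 for HSP90AA1, 6.67 for HSP90AB1 and 1.05 for HSPD1. With DMSO 3 and 4 and total count scaling, added after the data were seen, the median of all genes shifted to -0.45 and 2065 genes were higher and 6848 lower. The log2 folds were then -3.67 for HSPA8, and reversed to -0.22 for HSP90AA1 (adjusted p = 0.00317, edgeR), -0.10 for HSP90AB1 (adjusted p = 0.0613, edgeR) and -0.24 for HSPD1 (adjusted p = 0.00108, edgeR), members lower numbered 5, and role-list genes 18 higher and 86 lower. These 3 folds were less negative than the median of -0.45, and whether that median marks no change was not tested. The cause of these changes was not tested.

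DESeq2 called 1057 genes higher and 3473 lower and 1 role-list gene higher, and edgeR with total count scaling called 215 genes higher. The median of all genes moved to -0.13 and -0.11 under DESeq2's test and size factors. Leaving out 1 library gave 61 to 1885 genes higher and 473 to 3438 lower, members 0 to 0 higher and 1 to 2 lower, and role-list genes 0 to 1 higher and 3 to 48 lower. The fewest, 61 genes higher without SY-351 replicate 3 and 473 lower and 3 role-list genes lower without SY-351 replicate 1, stand against the most without DMSO replicate 3. The HSPH1 log2 fold ran from -1.61 to -1.23 over these fits.

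Summing HSPA1A with HSPA1B, the ratio of HSPE1 to HSPD1 and genes most like HSF1 were not run, since these rows were not analysed here or stood at 0. Other probabilities in the splicing table could not change the members' count, since the members have 0 entries there.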
